A study of Rattus norvegicus with 154 samples.

Results

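Lung messenger RNA was compared between 3 rats given 3 mg of sulfur mustard and 3 rats given 1 mg, all sampled 24 h after exposure. The 6 animals, with 2 array chips each, gave 12 of the 154 arrays of the series, which held 77 animals in 25 groups. All 6 had received the agent in isopropyl alcohol, and the contrast was made directly between the doses, without the animals given no agent. The other groups, used below as context, had saline, the isopropyl alcohol vehicle alone (0 mg), or 6 mg in that vehicle, and sampling times were 30 min, 1 h, 3 h, 6 h and 24 h. The labels gave doses in mg without a body weight, and they named no strain, sex, age or route of exposure. The tissue was whole lung, so fewer cells of a type and less RNA per cell cannot be told apart in any value below.

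Sulfur mustard alkylates DNA and can link its strands, and the lung is one of its main target organs. Damaged DNA activates the transcription factor p53, whose targets stop the cell cycle, repair DNA or start cell death. Type I interferons act on a receptor that activates a complex of transcription factors, and this complex binds the interferon-stimulated response element in the promoters of antiviral genes. Epithelial cells, macrophages and endothelial cells of the lung all respond to interferon in this way.

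The genes that separated the doses most were interferon-induced, and the response element could be looked for in their promoters. The core motif GAAANNGAAA, on either strand (TTTCNNTTTC on the other), was searched from 250 bases before to 50 bases after each annotated start in RefSeq sequences of the GRCr8 assembly. It was found in 13 of the 18 promoters at hand for the 21 tested members of the interferon-induced list (72.2%). It was found in 15 of 41 promoters of the 47 genes that were lower at 3 mg (36.6%) and in 0 of 7 promoters of the 9 genes that were higher. Over all tested genes 187 of 6713 promoters held it (2.79%), and over all RefSeq promoters at hand 1040 of 27457 did (3.79%). The lists were chosen with the results known, and a match is a description of letters, not a binding site. The promoters of 4 of the most changed genes are shown with the motif in capitals, to place it beside the values given below. They are Rsad2 (chr6:48788071-48788370, minus strand), Ifit3 (chr1:241527076-241527375, plus strand), Irf7 (chr1:205799974-205800273, minus strand) and Oas1a (chr12:41330216-41330515, plus strand), all from RefSeq, build GRCr8.
Rsad2: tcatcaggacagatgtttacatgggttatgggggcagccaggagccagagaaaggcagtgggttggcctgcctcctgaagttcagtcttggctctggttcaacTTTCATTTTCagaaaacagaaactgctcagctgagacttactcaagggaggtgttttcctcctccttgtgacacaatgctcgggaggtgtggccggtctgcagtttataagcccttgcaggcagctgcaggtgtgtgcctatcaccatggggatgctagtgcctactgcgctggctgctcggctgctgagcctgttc
Ifit3: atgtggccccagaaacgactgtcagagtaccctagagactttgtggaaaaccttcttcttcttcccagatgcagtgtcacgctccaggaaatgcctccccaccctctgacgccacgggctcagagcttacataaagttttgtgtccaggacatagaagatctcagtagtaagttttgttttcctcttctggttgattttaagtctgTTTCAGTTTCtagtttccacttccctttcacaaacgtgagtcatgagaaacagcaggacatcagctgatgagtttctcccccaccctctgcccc
Irf7: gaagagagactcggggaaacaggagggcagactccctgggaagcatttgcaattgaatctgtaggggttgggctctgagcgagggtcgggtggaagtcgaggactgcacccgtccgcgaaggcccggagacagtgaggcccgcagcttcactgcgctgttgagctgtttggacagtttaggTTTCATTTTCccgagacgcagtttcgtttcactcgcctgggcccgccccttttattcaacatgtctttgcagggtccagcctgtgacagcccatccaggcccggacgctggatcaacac
Oas1a: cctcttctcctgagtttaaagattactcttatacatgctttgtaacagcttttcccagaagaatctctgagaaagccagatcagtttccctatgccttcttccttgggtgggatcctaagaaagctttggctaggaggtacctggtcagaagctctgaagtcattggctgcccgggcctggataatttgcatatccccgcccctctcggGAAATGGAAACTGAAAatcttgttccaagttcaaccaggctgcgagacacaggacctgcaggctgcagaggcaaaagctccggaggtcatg
The motif began 147 bases before the start in Rsad2, 44 bases before it in Ifit3 and 69 bases before it in Irf7. Oas1a had 2 overlapping matches, 41 and 35 bases before the start. All 4 promoters shown hold a match. Of the 15 genes with the largest falls 13 had a promoter at hand, and 8 of these 13 held the motif. Mx1, the gene with the largest fall, had no match in its window, nor had Gzmm, Znfx1, Rnf213 and Oasl. Usp18 and Mx2 had no entry in the table.

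At 24 h 75 of 11106 tested probe sets differed between 3 mg and 1 mg, 11 of them higher and 64 lower at 3 mg (limma, adjusted p under 0.05). They stood beside 712 with an unadjusted p under 0.05. Counted by gene, each through its probe set with the highest mean, 47 of 8042 genes were lower (0.584%) and 9 were higher (0.112%). In all 75 probe sets the 3 animals of one dose lay outside the range of the 3 of the other. Without overlap of the animals, but with no test, 618 genes were lower (7.68%) and 707 were higher (8.79%). The median log2 difference of all tested genes was 0.02. The count was 43 without 1 mg replicate 1 (4 higher and 39 lower). It was 35 with only these 2 groups in the fit (2 higher and 33 lower) and 228 with array weights (117 higher and 111 lower).

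**Figure D1:**
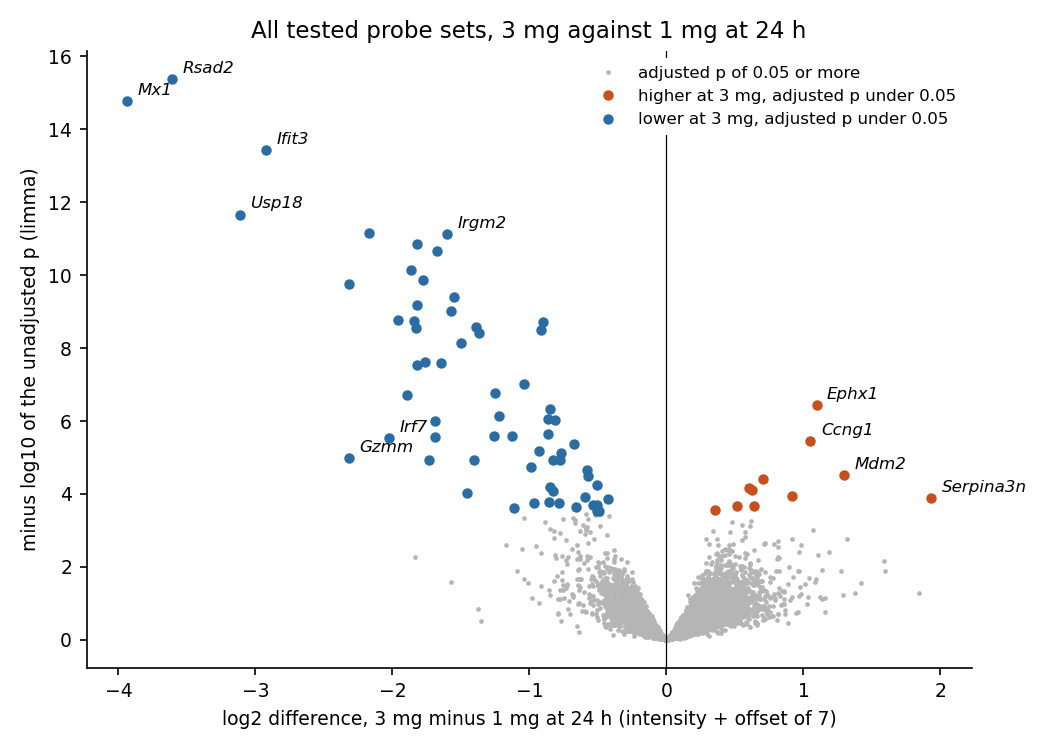
Each point is 1 of 11106 tested probe sets. The horizontal axis is the log2 difference, 3 mg minus 1 mg at 24 h, and the vertical axis is minus log10 of the unadjusted p. The 64 called probe sets on the left reach -3.94 for Mx1, and the 11 on the right reach 1.93 for Serpina3n.

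Interferon-induced antiviral genes were far lower at 3 mg than at 1 mg, and the 4 most changed were 7.58-fold to 15.3-fold lower. Of 27 listed interferon-induced genes 22 were matched to a probe set here and 21 passed the filter on low values. Of these 21 members 12 were lower and 0 higher, and the list had a median log2 difference of -0.86. In 17 of the 21 the 3 mg animals lay below all 1 mg animals. The list median was -1.14 in the 1 pair of scan days that held both doses (1 animal at 3 mg and 2 at 1 mg). Leaving out 1 animal at a time gave 10 to 13 lower members.

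Mx1, a dynamin-like GTPase that blocks viral replication, had intensities of 57.8, 71.5 and 58.1 in the 3 mg animals, against 1391, 667 and 1250.05 in the 1 mg animals. The groups did not overlap, and the lowest 1 mg animal stood far above the highest 3 mg animal. The means were 62.5 ± 7.84 and 1103 ± 384 at 3 mg and 1 mg (SD, n = 3 each). The log2 difference was -3.94 ± 0.36 (SE), or 15.3-fold lower (limma, adjusted p = 9.16e-12). Fold changes are on the scale of intensity plus an offset of 7 and understate changes of dim genes.

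Rsad2, which encodes viperin, a radical SAM enzyme that halts viral RNA synthesis, had 93.1, 105 and 81.6 at 3 mg, against 1615, 770 and 1402 at 1 mg. It was 12.2-fold lower (log2 difference -3.61 ± 0.32 SE, limma adjusted p = 4.58e-12). Usp18, a protease that removes ISG15 from proteins and damps the interferon receptor, had 139.5, 122.8 and 72.2 at 3 mg, against 1295, 695 and 1060.1 at 1 mg. It was 8.64-fold lower. Ifit3, a member of the IFIT family of antiviral RNA-response proteins, had 61.6, 64.1 and 52.1 at 3 mg, against 739, 300.4 and 532 at 1 mg. It was 7.58-fold lower. In all 4 genes the 3 mg animals lay below every 1 mg animal, and replicate 2 was the lowest of the 1 mg animals. Of the 47 lower genes 46 had this replicate as the lowest 1 mg animal, which is 1 animal seen in many genes. The share over all tested genes was not counted.

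Oas1a, Oasl, Eif2ak2, Znfx1 and Mx2 were lower as well. Oas1a, a synthetase of the oligoadenylate messenger that activates RNase L, had 171, 159 and 130.3 at 3 mg, against 717, 435 and 549 at 1 mg. It was 3.55-fold lower (log2 difference -1.83 ± 0.26 SE, limma adjusted p = 1.68e-06). Oasl, a relative of the same family, was 3.43-fold lower. Eif2ak2, which encodes PKR, the kinase that stops translation on double-stranded RNA, had 66.9, 57.5 and 52.6 at 3 mg, against 267, 184 and 232 at 1 mg, and was 3.53-fold lower. Znfx1, a helicase-like RNA sensor, was 3.65-fold lower, with 127, 137 and 98.7 at 3 mg, against 623, 357 and 419.8 at 1 mg. Mx2, the second Mx GTPase, was 3.71-fold lower. None of these genes had overlapping groups.

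Irf7 and Stat2, regulators of the pathway, were lower too. Irf7, the transcription factor that amplifies interferon production, had 243, 266 and 229 at 3 mg, against 1226, 768 and 1125 at 1 mg. It was 4.06-fold lower (log2 difference -2.02 ± 0.39 SE, limma adjusted p = 0.000836). Stat2, a subunit of the complex that binds the response element, had 166, 197 and 207 at 3 mg, against 414, 276 and 339 at 1 mg. Its log2 difference was -0.82 ± 0.15 (SE), and a second probe set gave -1.74. Irf1, a factor induced by interferon gamma in particular, had 436, 451 and 371 at 3 mg, against 626, 654 and 620.4 at 1 mg, with a log2 difference of -0.59 that did not pass the test (limma, adjusted p = 0.131).

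Cxcl10, a chemokine that attracts T cells, had 38.4, 40.9 and 41.4 at 3 mg, against 240.2, 75.8 and 165.5 at 1 mg. It was 3.22-fold lower (log2 difference -1.69 ± 0.32 SE, limma adjusted p = 0.000797). The call was lost without 1 mg replicate 1, where the difference was -1.34, and with only these 2 groups in the fit. Gbp2, a guanylate-binding GTPase, was 2.97-fold lower, and Psmb9, a subunit of the immunoproteasome, had a log2 difference of -0.86 ± 0.21 (SE). Of the other genes of antigen processing on the list Psmb8 (-0.82), Tap1 (-0.81) and Tap2 (0.08) did not pass the test. Ifitm3 (-0.38), Ifi27 (-0.74), Bst2 (-0.18), Cxcl9 (-0.11) and Ifit1 (0.04) did not pass either. Ifit1 overlapped between the doses, with 61.0, 74.7 and 135.2 at 3 mg, against 39.8, 171 and 85.0 at 1 mg.

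Of the 15 genes with the largest falls 9 were on the interferon-induced list and Gzmm was on the T and NK cell list, and the other 5 were on no list. Rnf213, a very large ubiquitin ligase, was 3.53-fold lower, and its second probe set gave a log2 difference of -1.96. Dtx3l, the ubiquitin ligase that works with Parp9, had 159, 170.2 and 164.2 at 3 mg, against 621, 443 and 535 at 1 mg, and was 3.12-fold lower. Ifgga2l1 was 4.97-fold lower, with 102.5, 66.8 and 82.1 at 3 mg, against 548, 347 and 447 at 1 mg. Oasl and Znfx1 have been given above. The remaining 32 lower genes had log2 differences between -1.60 and -0.43.

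Several of those 32 are named here after their values were seen. Irgm2, an immunity-related GTPase, had 286, 301 and 244 at 3 mg, against 1070.15, 647 and 888 at 1 mg (log2 difference -1.60). Parp9 (-1.37) and Parp14 (-1.04) are ADP-ribosyltransferases, and Parp9 is the partner of Dtx3l. Ube2l6 (-0.87) is the conjugating enzyme for ISG15, Samhd1 (-1.26) is a dNTP hydrolase that restricts viruses, and Adar (-0.53) is an RNA-editing deaminase. A second Adar probe set stood at -0.26 and was not called. Cyp27a1 (-0.92), a mitochondrial sterol hydroxylase, and Tgoln2 (-0.49), a protein of the trans-Golgi network, were the members of other pathways looked at in this way. The other 2 probe sets of Tgoln2 pointed the other way (0.49 and 1.16, neither called). RT1-S3 (-0.97) is a class Ib histocompatibility gene with close relatives, which its probe sets may also bind, and that was not tested. Of the 75 called probe sets 15 had no single gene name, and 13 of these were lower.

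**Figure D2:**
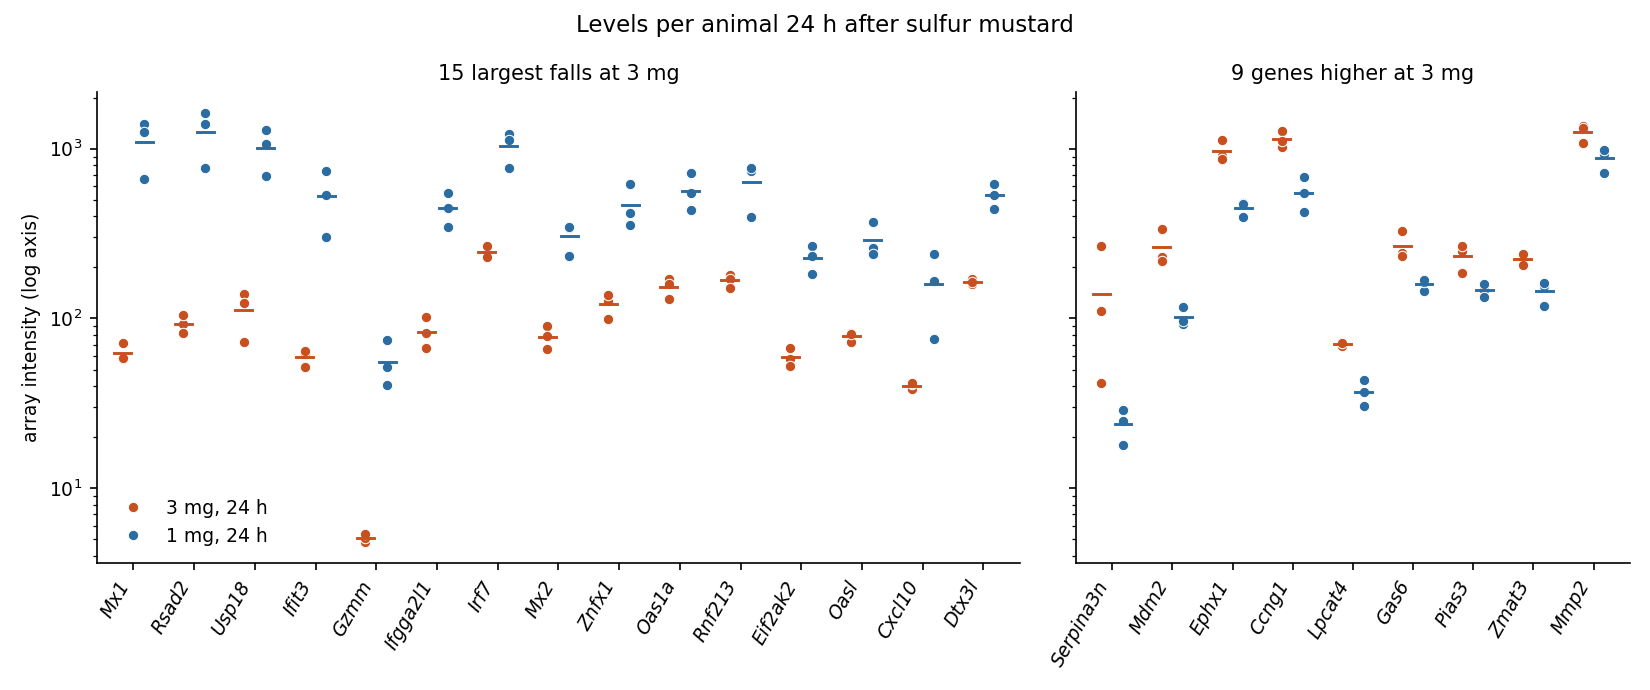
Array intensity (log axis) of each animal for the 15 genes with the largest falls and the 9 genes that were higher, with 3 mg on the left and 1 mg on the right of each gene and a bar at the mean of 3 animals. No gene has overlapping groups, and the 3 mg animals of Mx1 sit between 57.8 and 71.5 while its 1 mg animals sit between 667 and 1391.

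The 24 h animals of the other doses place this difference. The mean log2 level of the 21 interferon-induced genes was 7.16 to 7.87 in saline, 7.35 to 8.23 in isopropyl alcohol alone, 8.54 to 9.03 at 1 mg, 7.38 to 7.44 at 3 mg and 7.35 to 7.64 at 6 mg. The 1 mg animals at 24 h held the 3 highest levels among all 77 animals. As a group mean, 1 mg at 24 h ranked first of 25 groups and 3 mg at 24 h ranked 24. The 3 mg animals thus lay within the range of the saline animals, and the 1 mg animals above it. Of the 47 lower genes 45 had a 1 mg mean above the isopropyl alcohol mean, and 45 had a 3 mg mean below it. In 44 of them the 6 mg animals all lay below the 1 mg animals. The same 1 mg and 3 mg values chose these 47 genes, which favours such counts. The shares over all tested genes were not counted.

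The isopropyl alcohol animals were spread widely in these genes. Mx1 had 212, 335 and 70.8 in isopropyl alcohol alone and 119.6, 77.6 and 64.7 in saline. Replicate 3 was the lowest of the isopropyl alcohol animals in 39 of the 47 genes. At 6 mg Mx1 had 66.3, 34.2 and 51.8, near the 3 mg animals. These groups serve as context and were not tested here.

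**Figure D3:**
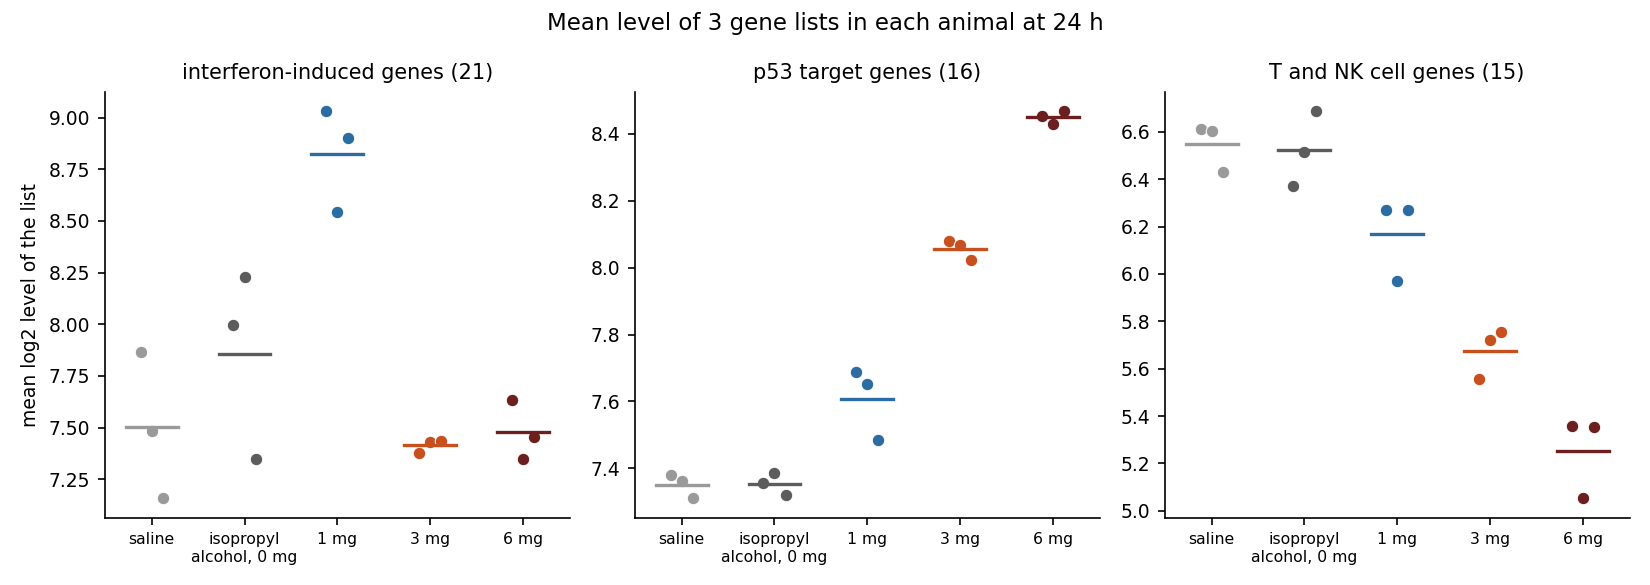
Mean log2 level of the tested members of 3 gene lists in each of the 15 animals at 24 h, by dose, with a bar at the group mean. The interferon-induced list peaks at 1 mg (8.54 to 9.03) and is near saline at 3 mg. The p53 list goes up and the T and NK cell list goes down from 1 mg through 3 mg to 6 mg.

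The same contrast gave 0 called probe sets at 30 min, 1 h and 3 h (limma). The counts with an unadjusted p under 0.05 were 90, 184 and 299 at these times, and array weights gave 3, 1 and 0 calls. At 6 h 40 probe sets were called, 4 higher and 36 lower, in 23 genes (0.286%). None of the 47 genes lower at 24 h was called at 6 h, and 13 of them had the same direction there. The difference at 24 h itself differed from that at 6 h in 48 probe sets, 44 of them below and 4 above (limma interaction, 409 with an unadjusted p under 0.05). By gene it was below in 32 (0.398%). Of the 47 lower genes 31 were among them. The same 24 h values chose these 47 genes and enter the interaction test, which favours such an overlap.

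The 5 genes with the smallest adjusted p for this change between times were Rsad2, Mx1, Ifit3, Usp18 and Znfx1. For Mx1 the 3 mg minus 1 mg difference was -3.94 at 24 h and 0.62 ± 0.36 (SE) at 6 h. The change was -4.56 ± 0.51 (SE, limma adjusted p = 1.22e-08). For Rsad2 the difference was -3.61 at 24 h and 0.46 at 6 h, for Ifit3 -2.92 and 0.61, for Usp18 -3.11 and 0.75, and for Znfx1 -1.87 and 0.41. None of the 6 h values passed the test. The list level at 6 h was 7.35 to 7.81 at 3 mg and 7.29 to 7.59 at 1 mg, and these ranges overlapped.

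**Figure D4:**
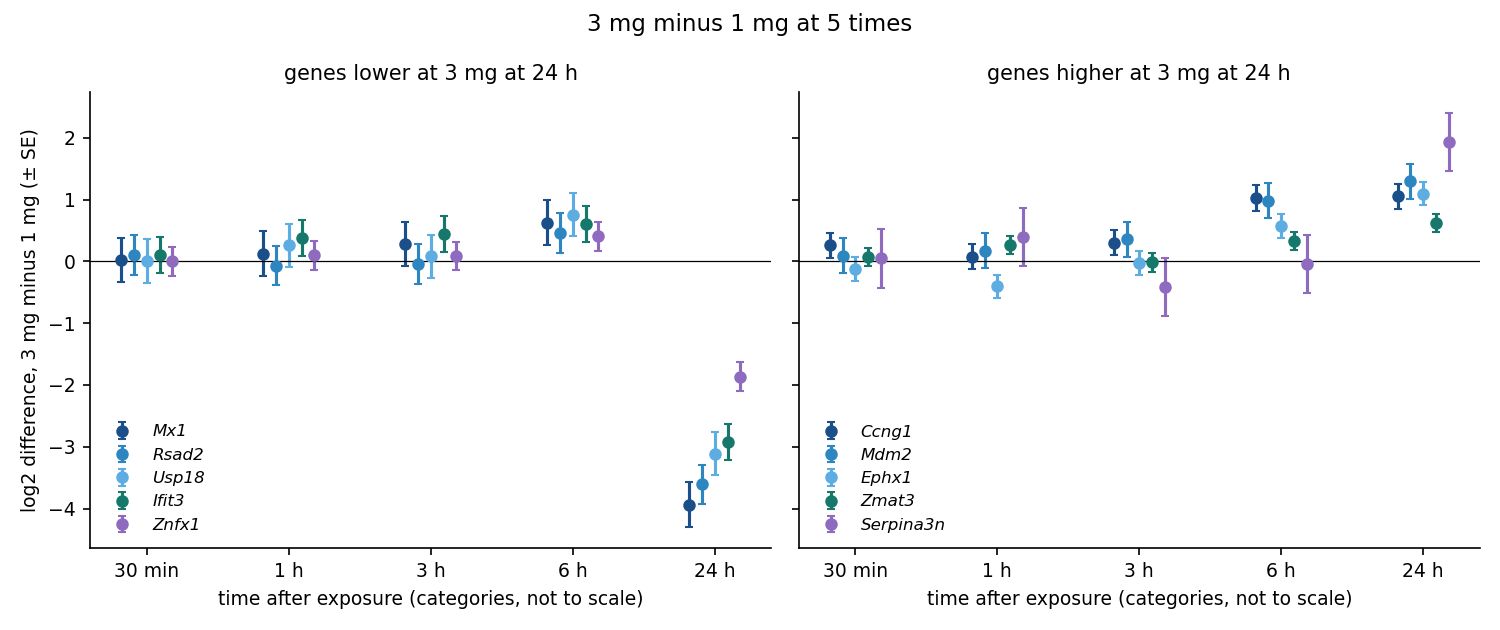
Log2 difference, 3 mg minus 1 mg, at 30 min, 1 h, 3 h, 6 h and 24 h for 5 genes lower and 5 genes higher at 3 mg at 24 h. Bars are ± 1 SE of the model. The antiviral genes stay between -0.07 and 0.75 up to 6 h and stand at -1.87 or below at 24 h, while Ccng1 is at 1.03 at 6 h and 1.05 at 24 h.

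Ccng1, Mdm2 and Zmat3, targets of p53, were higher at 3 mg than at 1 mg. Of 35 listed p53 targets 18 were matched to a probe set here and 16 were tested. Of these 16 members 3 were higher and 0 lower, with a median log2 difference of 0.27. In 7 of the 16 the 3 mg animals lay above all 1 mg animals. The list median was 0.33 within the shared scan days, and leaving out 1 animal at a time gave 1 to 3 called members, with 1 left without 1 mg replicate 3.

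Ccng1, a cyclin-like gene that p53 induces, had 1268, 1019.65 and 1118 in the 3 mg animals, against 548, 681 and 427 in the 1 mg animals. It was 2.07-fold higher (log2 difference 1.05 ± 0.20 SE, limma adjusted p = 0.000989), and the call was lost without 1 mg replicate 3 (0.88) and with only these 2 groups in the fit. It was also higher at 6 h (1.03 ± 0.20 SE, limma adjusted p = 0.00619), as the only gene called at both times. Mdm2, the ubiquitin ligase that degrades p53, had 230.4, 219 and 336 at 3 mg, against 117, 93.3 and 96.8 at 1 mg. It was 2.45-fold higher (1.29 ± 0.29 SE, limma adjusted p = 0.00661), and the call was lost without 3 mg replicate 3 and without 1 mg replicate 3. Zmat3, an RNA-binding p53 target, had 226, 238 and 207 at 3 mg, against 118, 155 and 163 at 1 mg, and was 1.54-fold higher. Its call was lost without 3 mg replicate 1 or 2, without 1 mg replicate 1 and with only these 2 groups in the fit, where Mdm2 kept its call. In each of the 3 genes the doses did not overlap.

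Cdkn1a, the cell cycle inhibitor p21, had the largest difference on the list (1.32 ± 0.40 SE) and did not pass the test (limma, adjusted p = 0.17). Its animals overlapped, with 1700.2, 1272 and 611 at 3 mg, against 752, 415 and 267 at 1 mg. The second Cdkn1a probe set stood at 1.59 (limma, adjusted p = 0.425). Phlda3 (0.71), an inhibitor of Akt, Dglucy (0.57) and Epha2 (0.40) had separate groups without passing the test. The DNA damage recognition genes Ddb2 (0.10) and Xpc (0.03), and Sesn1 (-0.08), Perp (0.02) and Gadd45a (0.28), overlapped between the doses.

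The p53 list level was ordered by dose at 24 h. It was 7.31 to 7.38 in saline, 7.32 to 7.39 in isopropyl alcohol alone, 7.49 to 7.69 at 1 mg, 8.02 to 8.08 at 3 mg and 8.43 to 8.47 at 6 mg, with no overlap between these 3 doses. Ccng1 itself had 190.4, 222 and 225 in isopropyl alcohol alone and 1599, 1857 and 1380 at 6 mg. Of the 9 genes higher at 3 mg, 8 had a 3 mg mean between those of 1 mg and 6 mg. In all 9 the 6 mg animals lay above the 1 mg animals. The same 1 mg values chose these genes, which favours such counts, and the shares over all tested genes were not counted. Of these 9 genes 8 had the same direction at 6 h, and for 0 of them did the difference change between 6 h and 24 h by the test.

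The other 6 higher genes came from different functions. Ephx1, the microsomal epoxide hydrolase of xenobiotic metabolism, had 906, 869 and 1131 at 3 mg, against 478, 473 and 394 at 1 mg. It was 2.14-fold higher (1.10 ± 0.19 SE, limma adjusted p = 0.000141) and kept its call without any single animal. It was the only called member of a list of 22 tested Nrf2 antioxidant and glutathione genes, whose median was 0.21. Nqo1 (0.39), Gclc (0.27), Txnrd1 (0.26) and Gstm1 (0.23) on that list had separate groups without passing the test, and Hmox1 stood at -0.04. Of the 22 members 5 were below 0, the lowest at -0.31, and 1 was lower at 3 mg with separate groups.

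Serpina3n, an acute phase serine protease inhibitor, had 268, 111 and 41.6 at 3 mg, against 17.9, 24.8 and 29.0 at 1 mg. It was 3.82-fold higher (1.93 ± 0.47 SE, limma adjusted p = 0.0232), with 3 mg replicate 1 far above the others. The call was lost in 5 of the 6 fits that left out an animal, and the difference was 1.31 without 3 mg replicate 1. Lpcat4, a lysophospholipid acyltransferase, had 70.4, 69.1 and 72.0 at 3 mg, against 37.1, 30.5 and 43.2 at 1 mg. It had 44.5, 73.6 and 80.5 in saline, 64.5, 52.7 and 59.8 in isopropyl alcohol alone and 62.2, 62.1 and 63.6 at 6 mg. The 1 mg animals lay below all of these, and the 3 mg animals lay inside the saline range and above the other 2 groups. The Lpcat4 call was lost with scan days as a block (limma, adjusted p = 0.191), with the chips of an animal as a replicate block (limma, adjusted p = 0.293) and with only these 2 groups in the fit (limma, adjusted p = 0.154).

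Gas6, the ligand of the TAM receptor kinases, had 242.5, 327 and 233 at 3 mg, against 146, 164 and 169 at 1 mg (log2 difference 0.70). A second Gas6 probe set stood at 0.21 and did not pass the test. Mmp2, a gelatinase that degrades matrix, had 1364, 1328 and 1078 at 3 mg, against 933, 983 and 719 at 1 mg (0.52). Its second probe set stood at -0.10. Pias3, a SUMO ligase that inhibits STAT3, had 251, 268 and 185 at 3 mg, against 147, 160.1 and 133 at 1 mg (0.64). The calls of Lpcat4, Pias3, Mmp2 and Gas6 were lost in 5, 4, 4 and 2 of the 6 fits without an animal. The next gene by p, 2810025M15Rikl, had a log2 difference of 0.61 and did not pass the test (limma, adjusted p = 0.0729).

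Of 23 listed genes of T and NK cells 15 were tested, and 1 was lower and 0 higher at 3 mg. In 10 of the 15 the 3 mg animals lay below all 1 mg animals, and the list median was -0.39. Gzmm, a granzyme of cytotoxic lymphocytes, had 4.85, 5.1 and 5.4 at 3 mg, against 74.4, 40.8 and 51.5 at 1 mg. It was 4.99-fold lower on the offset scale (log2 difference -2.32 ± 0.48 SE, limma adjusted p = 0.0026), and its 3 mg values lay below the offset of 7. The size of the difference is set by the offset, at -3.18 with an offset of 1 and -1.21 with an offset of 32. The call was lost without 1 mg replicate 1 and with a floor of 20. Isopropyl alcohol animals had 18.2, 63.5 and 80.0, and 6 mg animals had 3.7, 2.4 and 5.1.

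Other members of the list were lower without passing the test. Gzmb, granzyme B, had a log2 difference of -0.74, Prf1, the pore-forming perforin, -0.60, Klrd1, an NK receptor chain, -0.45 and Cd3d, a chain of the T cell receptor complex, -0.64. Cd3d had 7.2, 10.6 and 7.65 at 3 mg, against 24.2, 13.1 and 17.5 at 1 mg. Cd4, which macrophages of the rat also carry, stood at 0.41. The summed intensity of the 15 members was 973 to 1041 at 3 mg and 1255 to 1530.05 at 1 mg. The list level was 6.37 to 6.69 in isopropyl alcohol alone, 5.97 to 6.27 at 1 mg, 5.55 to 5.75 at 3 mg and 5.05 to 5.36 at 6 mg. In these 6 animals the interferon-induced and the T and NK cell lists were both lower at 3 mg than at 1 mg. Between isopropyl alcohol alone and 1 mg at 24 h they went opposite ways. The mean interferon-induced level was 7.86 in isopropyl alcohol alone and 8.82 at 1 mg, and the T and NK cell level was 6.52 and 6.17. The part of either in the other was not tested.

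Markers of other immune cells passed the test in no case. The B cell and MHC class II list had a median of -0.38 over 9 members, with Cd74, the invariant chain, at 2159, 2281 and 2247 at 3 mg, against 2799, 2763 and 3181 at 1 mg. RT1-Da, a class II alpha chain, stood at -0.55 with overlapping groups (limma, adjusted p = 0.118). The mast cell and eosinophil list had a median of -0.62 over 5 members, with 4 below 0 and 1 above it (0.66). Among the 4 were the protease genes Cpa3 (-0.62) and Mcpt1 (-0.73) with separate groups and Tpsb2 (-1.04) without. The sum of the list was 205 to 356 at 3 mg and 347 to 412 at 1 mg. The neutrophil genes S100a8 and S100a9 overlapped between the doses. The 15 macrophage and monocyte genes had a median of 0.20, with 11 above 0 and 4 below (lowest -0.39). Their summed intensity went the other way, at 11146 to 12715 at 3 mg and 12977 to 14239 at 1 mg. Cd14, a lipopolysaccharide co-receptor, had 130, 149 and 320.4 at 3 mg, against 108, 82.2 and 124 at 1 mg (0.80, limma adjusted p = 0.566), while Cd68 stood at 0.01.

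The lung identity of the samples was clear in both doses. Sftpc, the surfactant protein of alveolar type II cells, was 5969 to 7653 at 3 mg and 8140.3 to 10194 at 1 mg. Scgb1a1, the secretoglobin of club cells, was 5137 to 6998 at 3 mg and 7519 to 8612 at 1 mg, and Ager, a receptor that type I cells carry in quantity, was 2176 to 2912 at 3 mg and 2287 to 2923 at 1 mg. No type II, club, ciliated or type I gene passed the test. All 11 tested type II genes had a difference below 0, the largest at -0.39, and their sum was 21845 to 25659 at 3 mg and 27391 to 27898 at 1 mg. The club cell sum was 8823 to 10380 at 3 mg and 11351 to 12442 at 1 mg. Pdpn, a type I cell membrane protein, had 1521, 1606 and 1399 at 3 mg, against 1934, 2015 and 2175 at 1 mg (-0.43, limma adjusted p = 0.556). The sum of red blood cell and platelet genes was 2963 to 4599 at 3 mg and 1406 to 10806 at 1 mg.

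**Figure D5:**
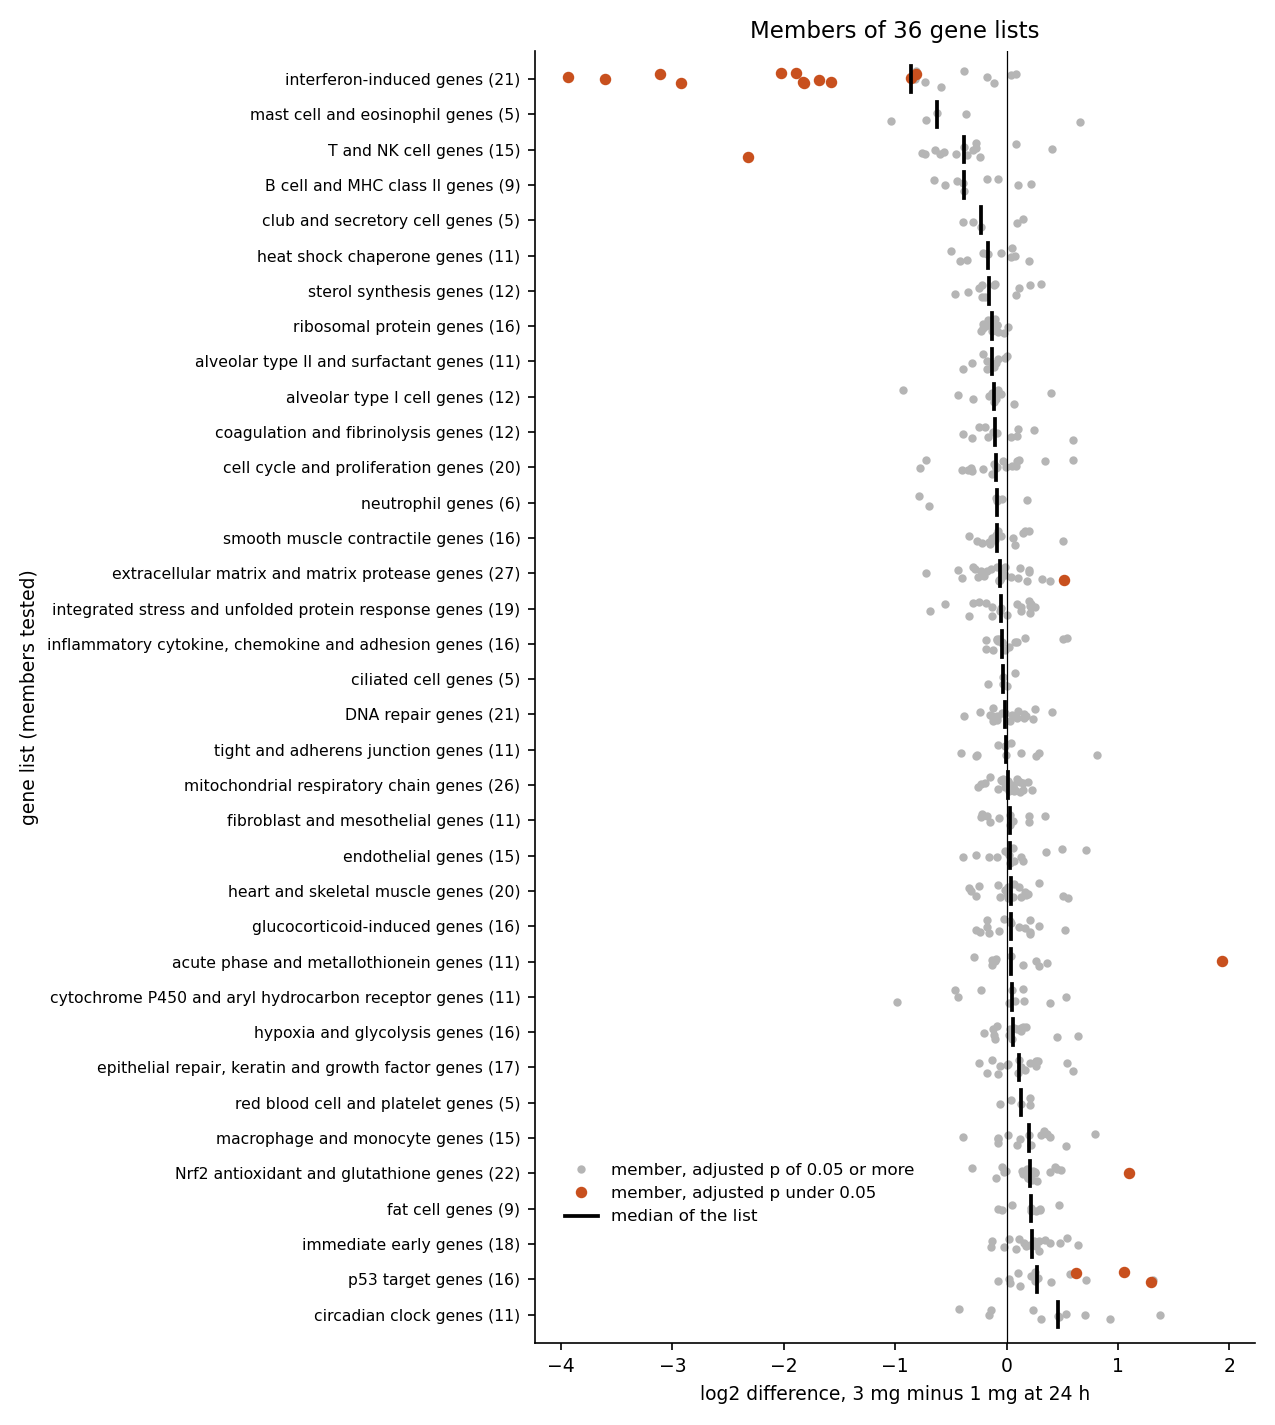
Log2 difference, 3 mg minus 1 mg at 24 h, of every tested member of 36 gene lists, with members past the test in orange and a bar at each list's median. The interferon-induced list is lowest, with 12 of 21 members past the test and a median of -0.86. The circadian list has the highest median, 0.46, with no member past the test.

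Most other pathways gave no called member. The 18 tested immediate early genes had a median of 0.23, with 6 above all 1 mg animals, among them Ier5 (0.48) and Ier3 (0.55). The 21 DNA repair genes had a median of -0.02, and the ligase Lig4 stood at 0.41. The 20 cell cycle genes had a median of -0.10, and Top2a, the topoisomerase of dividing cells, had 32.2, 51.1 and 35.2 at 3 mg, against 72.2, 47.7 and 93.9 at 1 mg (-0.72, limma adjusted p = 0.474). The 11 heat shock genes had a median of -0.17, with Serpinh1 (-0.35) and Hspb1 (-0.50) among 5 below all 1 mg animals. The 16 ribosomal protein genes had a median of -0.13, with 15 of 16 below 0 and none under -0.23. The 16 inflammatory genes had a median of -0.04, with Socs3 at 0.54 and Il1a at 0.50.

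The 11 circadian clock genes had the highest median of the lists, 0.46, and no called member. The clock-controlled factor Dbp had 255, 114 and 179 at 3 mg, against 37.4, 184 and 32.6 at 1 mg. Per2 had 308, 128 and 157 at 3 mg, against 61.2, 159 and 83.8 at 1 mg. In both genes 1 mg replicate 2 stood above the other 1 mg animals and inside the range of the 3 mg animals. Cry2 had separate groups (0.46, limma adjusted p = 0.323). The labels gave no hour of day for the sampling.

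The arrays of both doses were compared for quality. The median intensity per array was 74.2 to 87.5 in the 12 arrays, and the 2 chips of an animal had correlations of 0.962 to 0.986 across probe sets. The log2 ratio of 3' to 5' probe sets, a sign of RNA degradation, was 0.70 ± 0.46 at 3 mg and 1.06 ± 0.13 at 1 mg for GAPDH (SD, two-sided exact permutation p = 0.2). For beta-actin it was 0.89 ± 0.37 at 3 mg and 1.54 ± 0.32 at 1 mg (p = 0.2 by the same exact permutation test), where 3 against 3 animals allow no p under 0.1. The lowest ratios, 0.17 and 0.51, were those of 3 mg replicate 3. With both ratios as covariates, chosen after seeing the data, 79 probe sets were called. The 3 mg animals were scanned on 3 pairs of days and the 1 mg animals on 2, with 1 pair in common. In that pair Mx1 stood at -3.84 and Ccng1 at 1.22. All 47 lower and all 9 higher genes had the same direction there, which groups without overlap fix in advance. A block for scan days gave 65 called probe sets.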

How the data were processed

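Lung RNA of 77 rats in 25 groups was hybridised to Affymetrix RAE230A arrays, 2 chips per animal, per the file headers and labels. The number in each title was taken as the animal. The deposited values were linear intensity, and a 2% trimmed mean of 150.0 on every array was read from the values; the summarisation program is not given in the sources used here. An offset of 7, the 10th percentile, was added, and the deposited intensity was turned into log2 values averaged over the chips of an animal.

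Control probe sets and the 30% with the lowest means were left out, which left 11106 probe sets. Means of all 25 groups were fitted by limma 3.58.1 and statmod 1.5.0 under R 4.3.3, taking animals as replicates, two-sided tests and Benjamini-Hochberg adjustment at 0.05. The test was checked on simulated data, where it recovered 76% of log2 changes of 1 and 35% of log2 changes of 0.5. Changes of the smaller size were thus mostly missed there. Tables and exact permutation tests were made in Python 3.11.15 with SciPy 1.17.1. Nothing states that the animals were housed or handled separately, so p-values measure only the spread between these animals, which limma pooled over all 25 groups. The number of animals, 3 at each of the 2 doses, limits the precision.

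The 12783 probe sets with 1 gene symbol were named from GEO's platform annotation, updated through RefSeq. Named genes were the 15 largest falls and the rises past the test without overlap, filled to 10 by p, up to 4 called (or 2 uncalled) members of each of 36 lists, and 5 genes for the change between 6 h and 24 h. Other genes named were chosen after their values were seen. Members and lists were chosen with earlier results of these data known. Alternatives were other offsets, filters, floors and normalizations, each chip alone, all arrays with the animal as a block, array weights, scan days as a block, fewer groups in the fit, each animal left out, and 3'/5' ratios as covariates.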

Additional observations from a re-analysis of the deposited data

Results flagged for a closer look

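In 13 of the 15 genes with the largest falls the 3 mg minus 1 mg difference at 24 h differed from the same difference at 6 h by limma's interaction test. Over all 8042 tested genes it was below in 32 (0.398%). The same 24 h values chose these 15 genes and enter the test, which favours such a count. The 24 h difference less the 6 h difference, on the log2 scale, was -4.56 for Mx1, -4.06 for Rsad2, -3.86 for Usp18 and -3.53 for Ifit3. It was -2.72 for Irf7, -2.39 for Ifgga2l1, -2.27 for Znfx1, -2.20 for Oas1a, -2.16 for Eif2ak2 and -2.14 for Mx2. It was -1.95 for Oasl, -1.82 for Dtx3l and -1.76 for Rnf213. The adjusted p lay between 1.22e-08 for Mx1 and Rsad2 and 0.0053 for Mx2. Gzmm and Cxcl10, the other genes among the 15, were not past this test. The animals of 6 h and 24 h are different animals, and groups of 3 animals are too small for a test of single animals that stand apart.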

How the results depend on the processing

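The 75 probe sets called at 24 h became 35 with the 24 h groups alone, 35 with the 1 mg and 3 mg groups alone and 228 with array weights. Without 1 animal at a time the count was 43 to 86, lowest without 1 mg replicate 1. The other alternatives gave 65 to 105. At 6 h the 40 calls became 26 with median centring, 17 with chip A, 22 with chip B, 77 with all arrays and the chips of an animal as a replicate block, and 163 with array weights. Without 1 of the 24 h animals it was 33 to 35. With array weights the calls were 3 at 30 min and 1 at 1 h, and the 48 changes between 6 h and 24 h became 93. The cause was not tested. Without 1 animal these 48 were 33 to 55. No label says that animal numbers pair animals across doses. The numbers run in sets through the doses, with 3 mg replicates 1 and 2 next to 1 mg replicates 2 and 3, and 3 mg replicate 3 numbered apart. The replicate block of the 2 chips gave 105 calls at 24 h. No list median of the 3 and no gene of the 25 followed changed sign in the alternatives run. With the 50% filter this covers 20 of the 25. The 25 genes were picked for groups without overlap. Leaving out an animal, or taking the shared scan days alone, therefore could not change their sign. With array weights the balance of calls turned to more higher than lower (117 and 111, against 11 and 64). Of the 75 calls 70 were shared with the replicate block, 61 with scan days as a block and 33 with the 2 groups alone, which has fewer samples. With the 24 h groups alone Irf7, Mx2, Serpina3n, Lpcat4, Gas6, Pias3, Zmat3 and Mmp2 lost their call. With the 2 groups alone Cxcl10, Ccng1 and the last 6 of these did.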

Other observations

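Of the lists not described above, 2 had a called member, named above. The 27 extracellular matrix and matrix protease genes had a median of -0.06, with Mmp2 higher. The 11 acute phase and metallothionein genes had a median of 0.04, with Serpina3n higher. Of the 11 cytochrome P450 and aryl hydrocarbon receptor genes, with a median of 0.05, Cyp1a1, the classic target of that receptor, had 24.95, 17.9 and 3.85 at 3 mg, against 16.1, 24.8 and 82.0 at 1 mg, and the doses overlapped. The 16 hypoxia and glycolysis genes had a median of 0.06. Among them Hk1, the hexokinase that starts glycolysis, had 194.8, 229.7 and 267 at 3 mg, against 158, 134 and 143 at 1 mg (log2 difference 0.64, limma adjusted p = 0.283), and Egln3, an oxygen sensor of the HIF pathway, stood at 0.45 (limma, adjusted p = 0.462). The 17 epithelial repair and growth factor genes had a median of 0.11. Hbegf, a ligand of the EGF receptor, had 73.7, 56.6 and 57.0 at 3 mg, against 28.8, 50.9 and 48.5 at 1 mg (0.54, limma adjusted p = 0.701), and Krt18, a keratin of simple epithelium, stood at 0.29 with separate groups.

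The 12 sterol synthesis genes had a median of -0.16, with Cyp51 at -0.46 and Mvk at 0.31. The 19 integrated stress and unfolded protein genes had a median of -0.05, and Hsp90b1, a chaperone of the endoplasmic reticulum, had 935, 1022 and 992 at 3 mg, against 1393, 1259 and 1084 at 1 mg (-0.33, limma adjusted p = 0.771). The 26 respiratory chain genes had a median of 0.02, the 16 glucocorticoid-induced genes 0.04, the 12 coagulation genes -0.10 and the 11 junction genes -0.01. Of the structural cell types, the 15 endothelial genes had a median of 0.03, with Vwf at -0.39. The 16 smooth muscle genes had a median of -0.08, the 11 fibroblast and mesothelial genes 0.03, the 5 club cell genes -0.23, the 12 type I genes -0.11 and the 5 ciliated cell genes -0.03. The 9 fat cell genes had a median of 0.22 and the 20 heart and skeletal muscle genes 0.04, with Tcap, a sarcomere protein, at 147, 151 and 180.4 at 3 mg, against 127, 112 and 85.3 at 1 mg. No member of the lists of this paragraph passed the test.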
